A study of Macaca mulatta with 6 samples.

Results

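The genes described here encode the proteasome and its helpers in cultured luteal cells of the rhesus macaque. They were chosen by name, as every gene whose symbol in the probe annotation starts with PSMA to PSMG followed by a number, with the probe set of highest mean level standing for each gene. This gave 33 of 14132 named genes. Among them, PSMC3IP encodes a factor of meiotic recombination that binds PSMC3 and is no proteasome subunit. It is given apart, and the other 32 are called proteasome genes below. Of the 50 symbols of this form in the RefSeq gene table for the species (T2T-MMU8v2.0), 17 were not analysed here. Among these are PSMB9 and PSME1. PSMD4 is another, since its 3 probe sets also carry the name of PIP5K1A.

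The proteasome is a barrel-shaped protease that degrades proteins tagged with ubiquitin. Its 20S core has outer rings of alpha subunits (PSMA genes) and inner rings of beta subunits (PSMB genes), of which PSMB5, PSMB6 and PSMB7 carry the active sites. The 19S particle caps the core: its ATPases (PSMC genes) unfold substrates, and its other subunits (PSMD genes) bind and trim ubiquitin chains. Interferons induce PSMB8, PSMB9 and PSMB10, which take the places of PSMB5, PSMB6 and PSMB7 in newly built cores. The resulting immunoproteasome, with the PA28 activator made of PSME1 and PSME2, cuts peptides for presentation on class I molecules. The corpus luteum forms in the ovary after ovulation and secretes progesterone, and it holds endothelial, stromal and immune cells beside the steroidogenic ones.

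Cells were dispersed from corpora lutea collected on day 12, counted from the luteinizing hormone surge, and cultured for 24 h in serum-free medium on fibronectin. The vehicle cultures received 0.1% DMSO, and the others 1 µM T0901317, a man-made ligand that activates liver X receptors. There were 3 arrays per group, numbered as 3 pairs. The series asks which genes these receptors act on in luteal cells. The labels call the replicates biological and the series' design text calls them paired, but no animals are named. The p-values for T0901317 thus measure how the change varied over these 3 pairs of cultures, with variances moderated across probe sets by limma. RNA came from the whole mixed culture, so fewer cells of a type and less RNA per cell cannot be told apart.

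Values are RMA levels on a log2 scale. The 6 arrays had median levels of 5.54 to 5.71, and a reference for dim signal, the 95th percentile of 42 Bacillus control probe sets, lay at 4.63. Of the luteal markers, 9 of 14 were measured and all 9 had means above that reference. STAR, the cholesterol carrier of steroidogenic mitochondria, had 10.97, 11.48 and 10.54 in vehicle replicates 1, 2 and 3. CYP11A1 and LHCGR were not analysed here. The difference between 3' and 5' control probe sets, averaged over actin, GAPDH and EF1a, rises as RNA is degraded or copied short. It was 0.83, 0.76 and 1.89 in vehicle replicates 1, 2 and 3, and 1.00, 0.69 and 1.30 in the treated ones. Replicate 3 had the largest value in each group and stood apart from the others with vehicle, while with T0901317 the 3 values were spread about evenly.

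No proteasome gene passed the test for a change with T0901317. Of the 32 genes, 0 rose and 0 fell past an adjusted p of 0.05 (limma with the pair as a block, Benjamini-Hochberg over all probe sets), where 0.113% of named genes rose and 0.0637% fell. At an unadjusted p under 0.05 there was 1 gene, PSMB8, against 3.73% of named genes. Measured changes were small on the log2 scale, with a median of -0.05 and values from -0.27 to 0.09, while the median over all named genes was -0.02. Only 3 of the 32 (9.38%) lay beyond 0.1 in either direction, against 33.8% of named genes. These are PSMB8, PSMB10 and PSMG3.

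The arrays bounded these changes more narrowly than for most genes. The 95% interval of the change lay within 0.3 on either side of 0, a factor of 1.23, for 26 of the 32 genes (81.2%), and for 39.3% of all named genes. Limma's variance here follows the mean level, whose median was 10.56 for the 32 genes and 6.84 for all named genes. The median SE was 0.076 and 0.116. No share for genes of like level was computed, here or for changes beyond 0.1, so neither contrast is shown to be particular to proteasome genes. It did so for all 9 genes of the 20S core that are not induced by interferon and for all 12 of the 19S particle. The 6 genes with a wider reach were PSMB8, PSMB10, PSMB11, PSME3, PSMF1 and PSMG3.

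**Figure D1:**
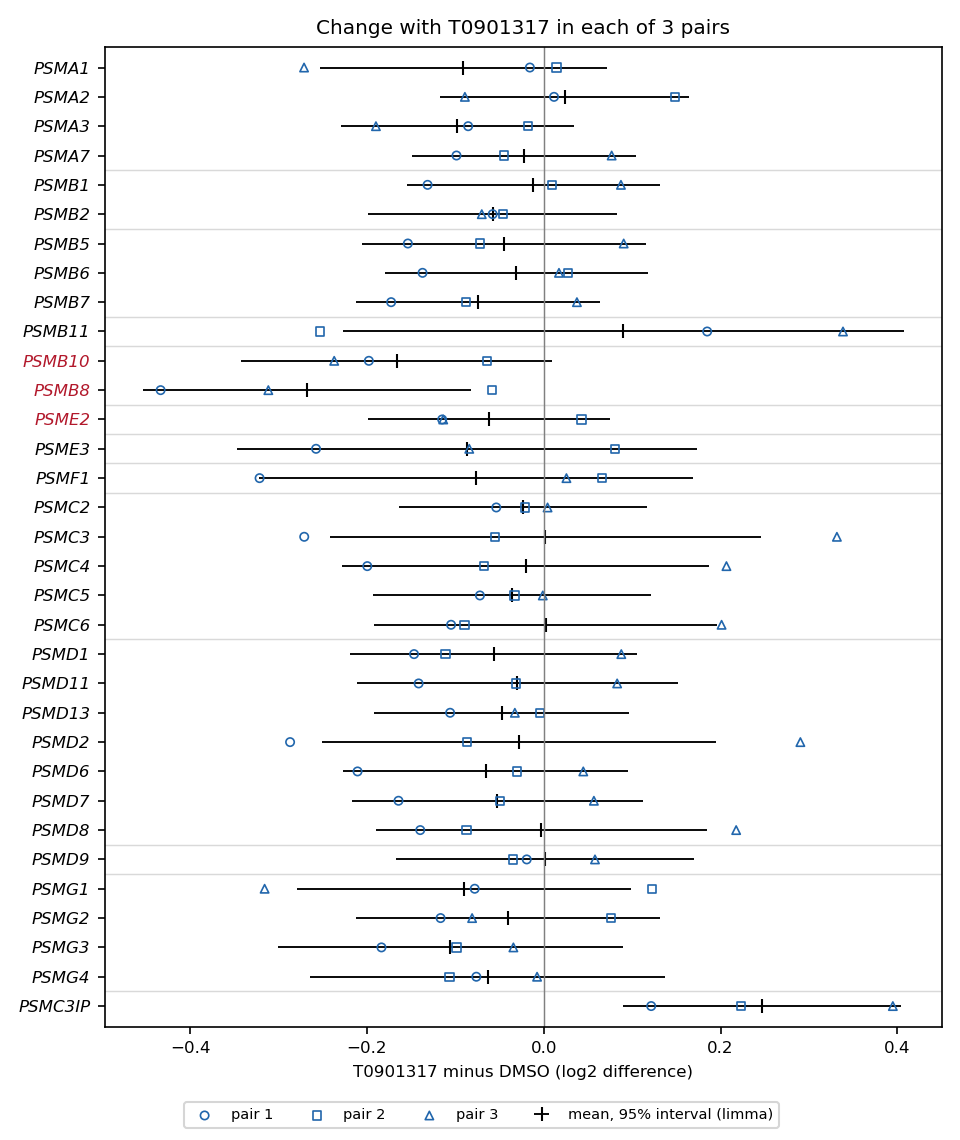
Treated minus vehicle log2 level (horizontal axis) of the 33 genes (vertical axis, grouped by role, interferon-inducible genes in red). Each open symbol is 1 of the 3 pairs, and the black mark shows limma's mean and 95% interval. PSMB8 has the lowest mean, -0.27, and PSMC3IP the highest, 0.25; of the other 31 intervals, those of PSMB10, PSMB11, PSME3, PSMF1 and PSMG3 reach beyond 0.3 from 0.

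More of these genes lay below 0 than above it. Of the 32, 27 had a mean change below 0, where 58.6% of named genes did. This count rested mostly on pair 1, in which 30 of the 32 lay below 0 and 63.7% of named genes did. In pair 2, 23 lay below 0 against 54.4% of named genes, and in pair 3, 14 against 46.8%. Without replicate 1, 16 of the 32 lay below 0, against 50.04% of named genes, and the median was 0.0009. Without replicate 3 the count was 30, against 62.3% of named genes, and the median -0.09. In all 3 pairs, 8 of the 32 were lower and 0 higher, against 15.8% and 9.43% of named genes.

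Among the interferon-inducible genes, 3 of 5 were measured, and none passed the threshold. PSMB8, which takes the place of PSMB5 and cuts after hydrophobic residues, had levels of 10.30, 10.70 and 10.97 in vehicle replicates 1, 2 and 3 and of 9.87, 10.64 and 10.66 with T0901317. Every treated array was lower than its vehicle partner, but the groups overlapped. The log2 differences were -0.43, -0.06 and -0.31 in pairs 1, 2 and 3. Their mean was -0.27 ± 0.08 (limma's SE, n = 3 pairs; a factor of 0.831), with an interval from -0.45 to -0.08 and an adjusted p of 1.00 in limma. Over the 10 alternative fits the change ran from -0.37 to -0.18, with adjusted p-values of 0.20 to 1.00.

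PSMB10, the inducible counterpart of PSMB7, had levels of 9.75, 10.17 and 9.78 with vehicle and 9.55, 10.11 and 9.54 with T0901317. It too was lower in each treated array, with overlapping groups. The differences were -0.20, -0.06 and -0.24, with a mean of -0.17 ± 0.08 (adjusted p = 1.00 in limma). A second probe set of PSMB10 had differences of -0.13, -0.03 and -0.07 and a mean of -0.08.

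PSME2, the beta subunit of the PA28 activator, had 12.01, 12.15 and 12.23 with vehicle and 11.90, 12.19 and 12.12 with T0901317. Pairs 1 and 3 differed by -0.11 each and pair 2 by 0.04, for a mean of -0.06 ± 0.06. Its second probe set lay below the reference for dim signal, at a mean of 3.67.

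The constitutive catalytic subunits had smaller measured changes than PSMB8 and PSMB10, though not all were smaller than that of PSME2 (-0.06). PSMB5, of chymotrypsin-like activity, had 11.18, 11.19 and 10.68 with vehicle and 11.03, 11.12 and 10.77 with T0901317, a change of -0.05 ± 0.07. PSMB6, of caspase-like activity, had 11.44, 11.37 and 11.28 with vehicle and 11.31, 11.39 and 11.29 with T0901317, a change of -0.03 ± 0.07. PSMB7, of trypsin-like activity, had 12.35, 12.10 and 12.27 with vehicle and 12.18, 12.01 and 12.31 with T0901317, a change of -0.07 ± 0.06. The adjusted p was 1.00 for each in limma, and the groups overlapped in all 3 genes.

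Set against the other 29 proteasome genes, the 3 inducible ones had a lower median change in each pair. PSME2 by itself lay above the median of the others in pairs 1 and 2, with -0.11 and 0.04 against -0.13 and -0.03. The median change of the inducible genes minus that of the others was -0.07, -0.02 and -0.27 in pairs 1, 2 and 3, with a mean of -0.12 and an SD of 0.13 (n = 3 pairs). The spread between pairs was thus as large as the difference, which gets no test here since the genes were chosen. Without replicate 3 the mean was -0.05. An exact sign-flip test over 3 pairs could not give a two-sided p under 0.25 in any case.

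Each inducible subunit was also set beside the one it replaces. PSMB8 minus PSMB5 changed by -0.28, 0.01 and -0.40 in pairs 1, 2 and 3. PSMB10 minus PSMB7 changed by -0.03, 0.02 and -0.27. Both were below 0 in pairs 1 and 3 and above 0 in pair 2. Between the vehicle arrays the first spanned 1.18 on the log2 scale and the second 0.68, more than any pair changed it. These values compare arrays only, since levels of different probe sets have no common scale.

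The remaining activators and the inhibitor were dimmer. PSME3, which forms the nuclear PA28 gamma, had 6.87, 6.29 and 6.59 with vehicle and a change of -0.09 ± 0.12. PSMF1, an inhibitor of the 20S core, had 8.17, 7.41 and 7.39 with vehicle and a change of -0.08 ± 0.11, set by -0.32 in pair 1 beside 0.07 and 0.03 in the others. PSMB11, the catalytic subunit of the thymus, lay near the dim reference with vehicle levels of 4.99, 5.15 and 5.09. Its change of 0.09 ± 0.14 was the highest of the 32, with pairs at 0.18, -0.25 and 0.34.

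In the alpha ring, 4 genes were measured. PSMA3 changed by -0.10 ± 0.06 and was lower in 3 of 3 pairs, with -0.09, -0.02 and -0.19. PSMA1 changed by -0.09 ± 0.07, nearly all of it from pair 3 (-0.27), and by -0.00065 without replicate 3. PSMA2 had 0.02 ± 0.06 and PSMA7 -0.02 ± 0.06. The structural beta subunits PSMB1 and PSMB2 had -0.01 ± 0.07 and -0.06 ± 0.06. None of these passed the threshold.

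Chaperones that build the core had 4 measured genes, all with means below 0. PSMG3 had 8.87, 8.87 and 8.81 with vehicle and 8.69, 8.77 and 8.78 with T0901317, so the groups did not overlap. It was the 1 gene of the 32 with all treated arrays below all vehicle arrays, where 0.969% of named genes had this, and 0 of the 32 had the reverse, against 0.934%. Its change was -0.11 ± 0.09 (adjusted p = 1.00 in limma), but 0.02 as the mean of its probe sets. PSMG1 changed by -0.09 ± 0.09, with -0.08, 0.12 and -0.32 in the pairs. PSMG2 had -0.04 ± 0.08 and PSMG4 -0.06 ± 0.09. PSMD9, a chaperone of the 19S base, had 0.0014 ± 0.08.

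The 19S genes showed a pattern of signs across pairs. All 12 measured members, 5 ATPases and 7 other subunits, lay below 0 in pair 1 and in pair 2, and 10 of the 12 (83.3%) then lay above 0 in pair 3. Those signs were shared by 20.3% of all named genes. The median change of the 12 was -0.14, -0.05 and 0.09 in pairs 1, 2 and 3, and over the pairs -0.03. PSMC6, an ATPase, had differences of -0.10, -0.09 and 0.20, and a mean of 0.0023 ± 0.09. The ATPases PSMC2, PSMC4 and PSMC5 had mean changes of -0.02, -0.02 and -0.04. Of the lid subunits, PSMD6, PSMD7, PSMD8, PSMD11 and PSMD13 had -0.07, -0.05, -0.0031, -0.03 and -0.05, and PSMD1 of the base had -0.06.

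PSMC3 and PSMD2, chosen here after their values were seen, show the pattern most widely among the 19S genes. PSMC3, another ATPase, had -0.27, -0.05 and 0.33. PSMD2, a scaffold subunit of the base beside PSMD1, had -0.29, -0.09 and 0.29. Treated minus vehicle, the 3' to 5' control difference changed by 0.16, -0.08 and -0.59 in pairs 1, 2 and 3. With that control difference as a covariate, the median of the 12 genes in pair 3 was -0.094, and their median change over the pairs was -0.092. Pair 3 has by far the largest change of the covariate, so the fit pulls its value close to the fitted mean change. That fit also has 1 residual degree of freedom per probe set. The sign of pair 3 in it is therefore not informative, and the part of RNA quality in these signs was not tested.

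**Figure D2:**
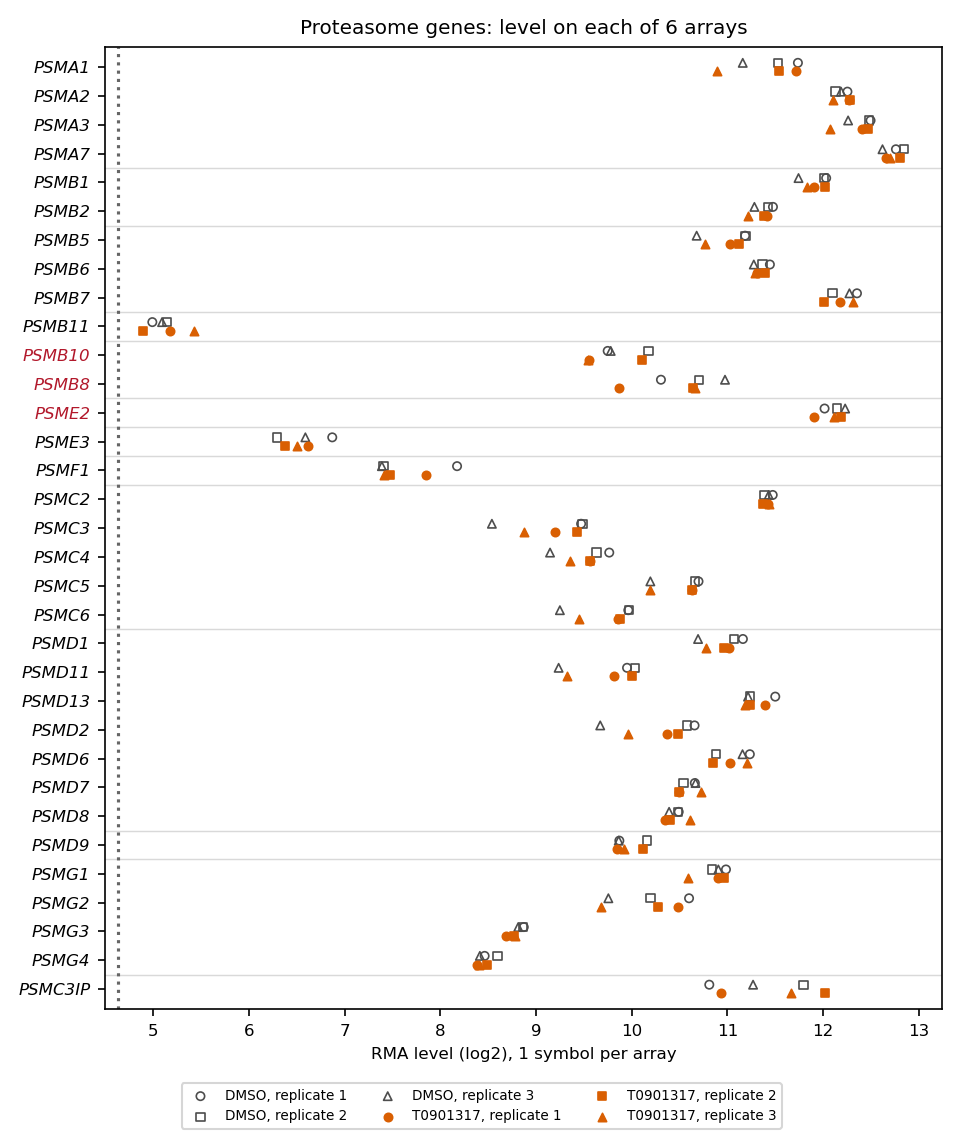
Log2 RMA level (horizontal axis) of each of the 33 genes (vertical axis, grouped by role, interferon-inducible genes in red) on each of the 6 arrays. Open symbols are vehicle arrays, filled symbols treated arrays, the shape gives the replicate and the dotted line the dim reference of 4.63. Arrays of 1 replicate lie close together, and triangles (replicate 3) lie to the left for many 20S and 19S genes; positions of different genes have no common scale.

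The SD over the 3 vehicle arrays exceeded the size of the treatment change in 29 of the 32 genes, and did so in 88.2% of named genes, so this is no trait of the proteasome genes. Between replicates, 16 of the 32 genes differed past an adjusted p of 0.05 (limma's F test of the replicate term), where 46.2% of named genes did. The members' share is near that background, so the count says nothing particular about these genes. Each replicate is 1 vehicle and 1 treated culture, and the test sets differences between replicates against the spread within pairs.

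By role, the replicate term passed for 4 of 5 ATPases, 4 of 7 other 19S subunits, 4 of 9 genes of the uninduced 20S core and 2 of 3 inducible genes. It passed for 1 of 5 chaperones of assembly and for PSMF1. The typical spread was modest. The median SD over vehicle arrays was 0.16 for the 32 genes and 0.24 for all named genes, with 0.13 for the uninduced 20S core and 0.26 for the 19S particle.

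The largest replicate terms among the 32 belonged to PSMG2 and PSMA1. PSMG2 had 10.60, 10.19 and 9.76 with vehicle and 10.48, 10.27 and 9.67 with T0901317 in replicates 1, 2 and 3 (adjusted p = 1.5e-04, limma). RefSeq's current table does not list the gene number annotated to that probe set. The other probe set of PSMG2 did not share this order, with 7.63, 8.18 and 7.75 in the vehicle arrays. PSMA1, an alpha ring subunit, had 11.74, 11.53 and 11.16 with vehicle and 11.72, 11.54 and 10.89 with T0901317 (adjusted p = 2.7e-04, limma).

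The smallest replicate terms belonged to PSMG3, PSMC2 and PSMD8. PSMC2, an ATPase, had 11.47, 11.39 and 11.43 with vehicle and 11.42, 11.37 and 11.44 with T0901317. PSMD8, a lid subunit, had 10.49, 10.49 and 10.39 with vehicle and 10.35, 10.40 and 10.61 with T0901317. The adjusted p of the replicate term was 0.73 for PSMC2, 0.80 for PSMD8 and 0.96 for PSMG3 in limma. On the other, dimmer probe set of PSMG3 it was 0.025 in limma.

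Across vehicle arrays, all 3 inducible genes were lowest in replicate 1, as were 1 of the other 29 (PSMB11) and 30.5% of named genes. For PSMB10 this rests on 9.75 in replicate 1 against 9.78 in replicate 3, and with T0901317 it was lowest in replicate 3. The second probe set of PSMB10 was lowest in replicate 1 in both groups. It had 9.39, 10.16 and 9.76 with vehicle and 9.26, 10.13 and 9.70 with T0901317. Of those 29, 21 (72.4%) were lowest in replicate 3, against 42.3% of named genes, and 20 (69.0%) were highest in replicate 1, against 33.1%. The replicate term of PSMB8 had an adjusted p of 4.7e-04 and that of PSMB10 one of 0.0029 in limma, while PSME2 missed the threshold (0.058). PSMB8 was lowest in replicate 1 with T0901317 as well, and PSME2 too.

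Among the 19S genes, most were lowest in replicate 3. PSMD2 had 10.66, 10.57 and 9.67 in vehicle replicates 1, 2 and 3 and 10.37, 10.49 and 9.96 with T0901317. PSMC3 had 9.47, 9.48 and 8.54 with vehicle and 9.20, 9.43 and 8.87 with T0901317. In both genes replicate 3 lay below all other arrays. Of the 12 genes, 9 were lowest in replicate 3 with vehicle and 8 in both groups, against 42.3% and 31.3% of named genes. The replicate 3 arrays also had the largest 3' to 5' control difference in each group, and its part in these levels was not tested. With it as a covariate, 9 of the 32 genes passed for replicate, where 29.2% of named genes did.

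**Figure D3:**
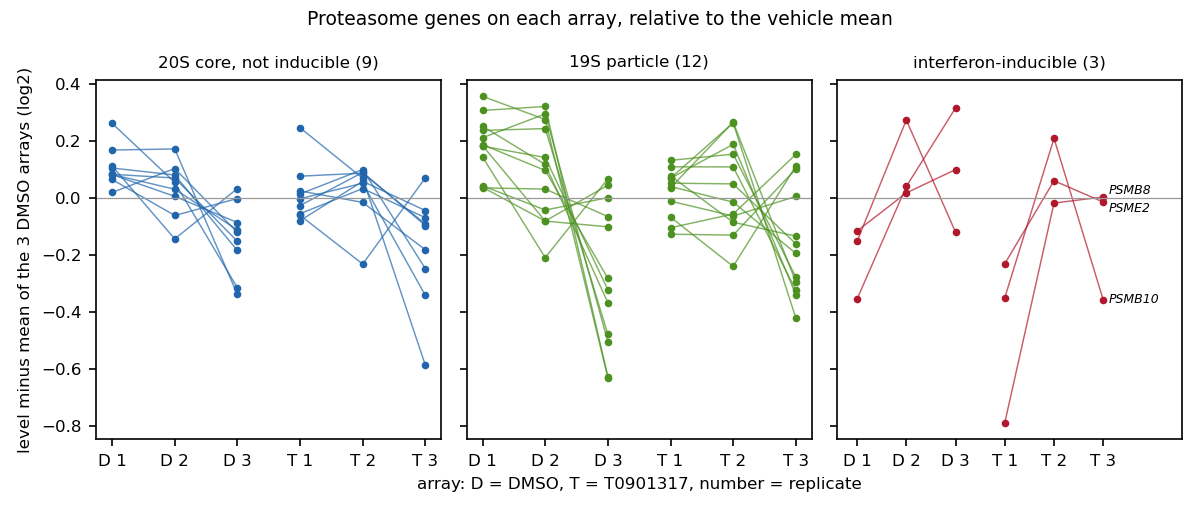
Log2 level minus the mean of the 3 vehicle arrays (vertical axis) on each array (horizontal axis) for 9 uninduced genes of the 20S core, 12 genes of the 19S particle and 3 interferon-inducible genes. Each point is 1 gene on 1 array, and lines join the arrays of a gene and mark no order. Many 20S and 19S genes drop in replicate 3, while the 3 inducible genes are lowest in vehicle replicate 1.

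Probe sets of 1 gene did not always share the order or the size of the replicate differences. PSMA2 had 12.25, 12.13 and 12.19 in the vehicle arrays on its brightest probe set, but 9.63, 9.58 and 8.82 on the next. PSMD11, a 19S subunit, had 9.95, 10.03 and 9.24 on its representative and 9.15, 9.88 and 7.26 on the other. On that dimmer probe set replicate 3 changed by 0.89 with T0901317. PSMC5, an ATPase, had 10.70, 10.66 and 10.19 on its representative and 9.63, 9.83 and 8.11 on the other. In PSMD11 and PSMC5 replicate 3 was the lowest vehicle array on both probe sets, with a wider span on the dimmer probe set. PSMA2, PSMD11 and PSMC5 were chosen after their values were seen. In all, 33 further probe sets were annotated to the 32 genes, 27 of them above the dim reference. Their changes with T0901317 ran from -0.28 to 0.17, and none passed at an adjusted or an unadjusted p of 0.05 in limma.

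PSMC3IP, which only shares the start of its name, had the highest change of the 33. It had 10.81, 11.79 and 11.27 with vehicle and 10.93, 12.02 and 11.66 with T0901317. The differences were 0.12, 0.22 and 0.40, and their mean of 0.25 ± 0.07 did not pass (adjusted p = 0.93, limma). Its replicate term was the strongest of the 33 (adjusted p = 1.5e-05, limma). Its 8 probe sets ran from -0.04 to 0.30.

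Genes of the surrounding pathways were taken from lists written for this tissue. Of 25 measured interferon-stimulated genes, 3 fell, 0 rose and 22 did not pass, and 24 lay below 0 with a median change of -0.34. Among all named genes 58.6% lay below 0, which is the background for this count and those of the lists below. ISG15, a ubiquitin-like modifier, had 11.89, 8.85 and 12.32 with vehicle and fell by 0.71 ± 0.07 in log2 units (adjusted p = 0.0020, limma). IFIT1, which binds viral RNA, had 11.42, 8.01 and 11.01 and fell by 0.73 ± 0.09 (adjusted p = 0.0090, limma). MX1, an antiviral GTPase, had 11.19, 9.77 and 11.58 and fell by 0.50 ± 0.07 (adjusted p = 0.033, limma). Over 10 alternative fits the call was lost in 2 for ISG15, in 3 for IFIT1 and in 6 for MX1. All 3 genes were lowest in vehicle replicate 2, while PSMB8, PSMB10 and PSME2 were lowest in replicate 1.

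Class I antigen processing, which uses peptides cut by the proteasome, had 13 measured genes. None rose or fell past the threshold, and 10 lay below 0 with a median of -0.12. TAP1, which carries peptides into the endoplasmic reticulum, had 9.61, 9.78 and 10.17 with vehicle and differences of -0.26, -0.06 and -0.34, a mean of -0.22 ± 0.09 (adjusted p = 1.00, limma). Like PSMB8, TAP1 was lowest in vehicle replicate 1 and differed least in pair 2. LNPEP, an aminopeptidase that trims such peptides, had -0.23 ± 0.14, but 0.05 in pair 3.

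Class II presentation had 10 measured genes, of which 0 passed and 7 lay below 0, with a median of -0.07. MAMU-DMA, a class II peptide editor, had 6.92, 8.19 and 8.27 with vehicle and a change of -0.34 ± 0.11. IFI30, a lysosomal thiol reductase, had 10.69, 12.08 and 12.51 and a change of -0.22 ± 0.07. Both were lowest in replicate 1, as were the inducible proteasome genes. Of 18 macrophage markers 13 were measured, and 11 of these were lowest in replicate 1 in both groups. MRC1 was lowest in vehicle replicate 3 and ITGAM in vehicle replicate 2. The log2 summed level of the 13 was 12.25, 13.51 and 13.38 in vehicle replicates 1, 2 and 3, and 12.07, 13.42 and 13.43 with T0901317. For T and NK cell markers, 11 of 20 measured, it was 12.84, 12.47 and 13.12 with vehicle and 12.69, 12.42 and 13.03 with T0901317. The brightest genes weigh most in such sums. Counted by gene, 6 of the 11 were lowest in vehicle replicate 1, 3 in replicate 2 and 2 in replicate 3. In both groups, 4 were lowest in replicate 1. The part of immune cells in the levels of the inducible genes was not tested.

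**Figure D4:**
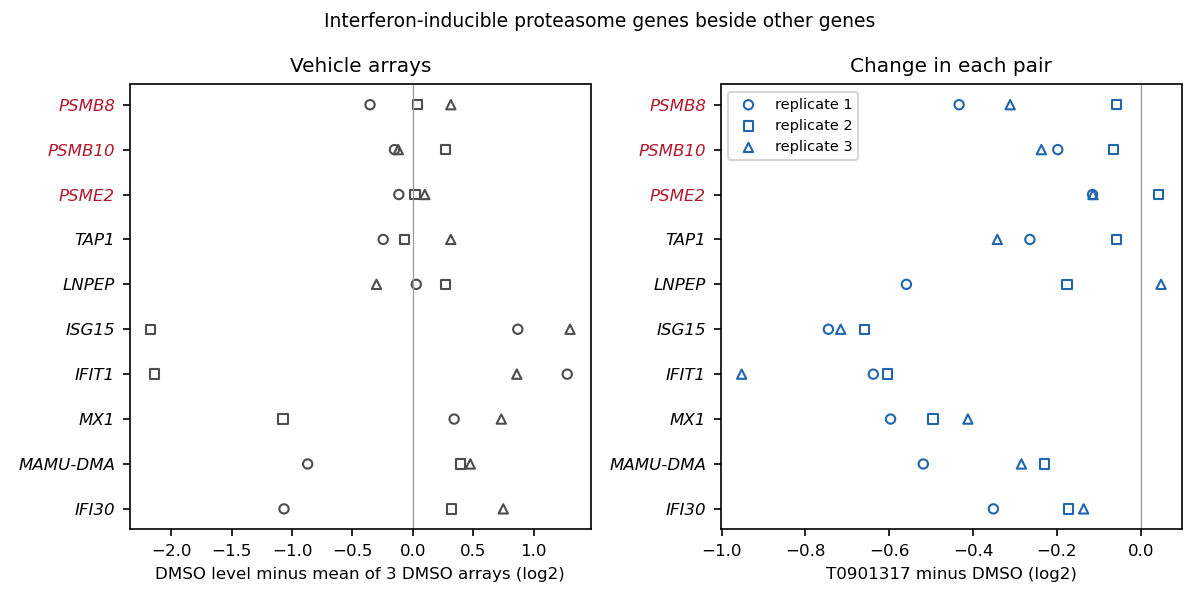
Left, log2 level in each vehicle array minus the mean of the 3; right, log2 difference between T0901317 and DMSO in each pair, for the 3 inducible proteasome genes (red) and 7 genes named by rule from the surrounding lists. Shapes are the replicates. ISG15, IFIT1 and MX1 are lowest in replicate 2 with vehicle, while PSMB8, PSMB10, PSME2, TAP1, MAMU-DMA and IFI30 are lowest in replicate 1. Other interferon-stimulated genes, such as IRF1 and CXCL10, are not drawn and were lowest in vehicle replicate 1.

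Genes that regulate or attach to the proteasome did not pass the test either. Of 36 listed symbols 20 were measured, 0 rose and 0 fell, and the median was -0.02 with 12 below 0. NFE2L1, the transcription factor that restores proteasome genes when the protease is blocked, had 10.41, 10.24 and 9.93 with vehicle and a change of 0.04 ± 0.08. USP14, a ubiquitin protease bound to the 19S particle, had the largest change of the list, -0.24 ± 0.10, and FBXO7, which binds the core inhibitor PSMF1, had -0.16 ± 0.13 (adjusted p = 1.00 for each in limma). NFE2L1 was added after its value was seen.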

How the data were processed

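The deposited log2 values were made with RMA, per the submitters' processing notes, which give no version. The sources used here do not say whether the 6 arrays were normalized together. Of 52865 probe sets, 99 controls were left out, which left 52766. Probe sets were named from the supplied platform annotation, and 24956 had 1 symbol. Symbols were checked by gene number against the RefSeq gene table, which changed 0 of them. No coordinates are printed, since no source used here names the build of the array design. Precision is limited by the number of arrays.

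T0901317 minus DMSO was fitted with limma 3.58.1 in R 4.3.3 blocked on replicate number, and eBayes let the variance follow the mean level. Two-sided p-values had Benjamini-Hochberg adjustment over all 52766 probe sets. The F test of the replicate term came from the same fit. The code was tested on simulated data. Pairing comes from the series' design text, and same-numbered arrays had correlations of 0.66, 0.81 and 0.83 between their deviations from the group means.

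The members, roles and lists were chosen with earlier results of these data known. The rule for named genes took the inducible subunits and the subunits they replace, members past the threshold, the 4 largest rises and falls among the rest, the 3 smallest and 3 largest replicate terms, and from each list the members past the threshold or else the 2 of largest change.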

Additional observations from a re-analysis of the deposited data

How the results depend on the processing

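The count of 0 proteasome genes past the threshold was 0 in all 10 alternative fits, in which 0 to 105 named genes passed. Without the replicate block, 0 of all named genes passed. The median change of the 32 genes stayed at -0.05, since with complete pairs the block cannot alter a mean change. The median ran from -0.09 to 0.0009 when a replicate was left out, and was -0.07 with arrays centred on their medians and -0.02 with cyclic loess. Scaling moved the median of all named genes by at most 0.02. The count of genes below 0 ran from 16 to 30 when a replicate was left out, with 16 without replicate 1. Among named genes, 50.04% to 62.3% lay below 0 in those fits. In the other fits the count ran from 21 to 30, where 55.2% to 66.8% of named genes lay below 0. The inducible genes minus the rest ran from -0.17 to -0.05 when a replicate was left out, and PSMB10 minus PSMB7 from -0.15 to -0.0008. The 16 genes that differed between replicates became 10 in eBayes without trend and 9 with the 3' to 5' difference as a covariate. The share of named genes fell as well, from 46.2% to 40.6% and 29.2% in those fits. The cause was not tested, though the covariate also leaves fewer residual degrees of freedom. Over all refits of single genes, 233 kept direction and call, and 15 changed sign without passing the threshold in either fit. Direction could not differ in the fits without the block, without trend or with only probe sets above the dim reference. Those leave each change as it was, so the 233 is no measure of stable direction. With the mean of a gene's probe sets PSMA2 was -0.0073 and PSMG3 0.017, and with cyclic loess PSMD8 was 0.031 and PSMC2 0.0044. PSMC6 was -0.021 with centred arrays and -0.070 with the covariate. When a replicate was left out, PSMB5 ran from -0.113 to 0.0092, PSMB6 from -0.060 to 0.022, PSMB11 from -0.034 to 0.262, PSMA2 from -0.039 to 0.080, PSMC6 from -0.097 to 0.056, PSMG1 from -0.197 to 0.022, PSMD8 from -0.113 to 0.065 and FBXO7 from -0.307 to 0.028. The cause of these sign changes was not tested. A further 11 refits lost a call (ISG15, IFIT1 or MX1) and 1 gained one (IFI30 without replicate 3, -0.26, adjusted p = 0.039 in limma).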

Other observations

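USP14, a ubiquitin protease of the proteasome, spanned 2.83 over the vehicle arrays, where the widest of the 32 proteasome genes, PSMD2, spanned 0.99. Its levels were 8.65, 7.83 and 10.66 in vehicle replicates 1, 2 and 3, and 8.60, 7.38 and 10.44 with T0901317. All 5 of its probe sets gave this order in both groups, with vehicle levels on the dimmest of 7.36, 6.39 and 9.31. Replicate 3 was the lowest vehicle array for 9 of the 12 genes of the 19S particle and the highest for USP14. USP14 was singled out after its values were seen.

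Markers of other cells that the cultures could hold did not pass the test for T0901317 in limma. Of 12 endothelial markers measured, 10 lay above 0 with a median of 0.16, where 41.4% of named genes lay above 0. Of 6 markers of pericytes and smooth muscle, 0 lay above 0, with a median of -0.15. For 8 fibroblast markers the median was -0.08, and for 5 B cell markers -0.03. Among 9 luteal markers, 6 lay below 0 with a median of -0.11, where 58.6% of named genes lay below 0.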
